A study of Mus musculus with 6 samples.

Results

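Cytokinesis, the last step of cell division, was followed through 8 mouse genes whose products build the central spindle, the contractile ring and the midbody, namely Anln, Ect2, Prc1, Racgap1, Cep55, Cit, Diaph3 (listed as Diap3 in older annotation) and Arhgap11a. They were found by gene symbol among the probe sets of an Affymetrix gene array that the annotation pairs with exactly 1 symbol. Of the 8 genes, 7 had such a probe set, 1 each, among the 18197 probe sets and 16797 genes tested, and Racgap1 had none and is given without values. The samples were NIH3T3 cells, an immortalized line of mouse fibroblasts that served as the Normal cells of the study. Treated cells (NF, 3 arrays) received 10 μM forskolin (FSK), which activates adenylate cyclase and so raises cAMP and PKA activity, at 24 h and again at 48 h. Untreated cells (N, 3 arrays) had no FSK, and both groups were plated in 25 mM glucose, changed after 16 h to medium with 1 mM glucose and harvested after 72 h of growth in it. The sample titles name the arrays as biological replicates, all 6 of them from 1 cell line.

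After the chromosomes separate, antiparallel microtubules are bundled between them into the central spindle. This structure recruits the exchange factor that activates the small GTPase RhoA at the cell's equator, and RhoA then drives the assembly of actin and myosin II into the ring that pinches the cell. The thin bridge that is left holds the midbody, where the ESCRT machinery makes the final cut. Many genes of this machinery are transcribed mostly late in the cell cycle and are silent in resting fibroblasts, while actomyosin, septins and ESCRT proteins also serve cells that do not divide.

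Values are log2 expression, made by the authors with RMA, which corrects background, equalizes the arrays and summarizes the probes of each probe set. The array medians lay between 3.91 and 3.92 in NF and between 3.84 and 3.93 in N. N replicate 1 stood apart, with an SD of its values of 2.42 against 2.58 to 2.62 in the other arrays, and with a median difference of -0.49 from the other N arrays over 5189 probe sets of moderate expression. Results are therefore also given without it. The median of the table (3.70) is here that of the mean values of the 18197 tested probe sets, and it lies below the array medians. The fibroblast label was borne out by its markers, since 7 of 7 measured fibroblast markers lay above the median of the table. Their mean was 10.09 to 10.33 in NF and 9.63 to 10.10 in N. Of 9 measured markers of other cell types only Krt14 lay above that median, and the mean of this list was 3.04 to 3.32 in NF and 3.09 to 3.29 in N. Among the fibroblast markers, Col3a1, a collagen gene, was itself higher in NF (log2 change 1.33, adjusted p = 0.0157 from limma), and its part in the results was not tested.

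All 7 measured genes of cytokinesis were higher in NF than in N, by 1.86-fold to 3.11-fold. In each of them the 3 NF arrays lay above the 3 N arrays, a separation in this direction found in 10.5% of all genes tested. All 7 passed the moderated test of limma with an adjusted p between 0.00594 and 0.0298, where 1.83% of all genes passed in this direction. They also all passed after quantile normalization (2.95% of all genes), after centring of each array on its median (2.01%), with dim probe sets removed (4.32%), with the probe set of highest mean (1.79%) and with the trend and robust options of limma (1.92%). The study's methods also name limma for the arrays. A Student's t-test without its shared variance, which the study names for its statistics in general, called after Benjamini-Hochberg adjustment only Arhgap11a, and no other gene (0.00595%). In 6 of the 7 the group means differed by at least 2-fold, as in 1.93% of all genes. The median log2 change of the 7 genes was 1.38, beside -0.03 over all genes. The genes were chosen with earlier results of these data known, so the shares over all genes describe them and are no independent test. The direction follows the labels of the arrays. It is opposite to the one that the study's text gives for cell cycle genes in FSK-treated Normal cells. The study drew that statement from its own array comparison of NF with N. Citing earlier work of its authors, it also describes the response of Normal cells to FSK as cell cycle inhibition and proliferation arrest. Whether the labels or the text hold the true direction cannot be told here, and every direction given here depends on the labels. The arrays measure RNA of whole cultures, in which more cells at the stage that expresses a gene and more of its RNA per cell cannot be told apart.

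**Figure D1:**
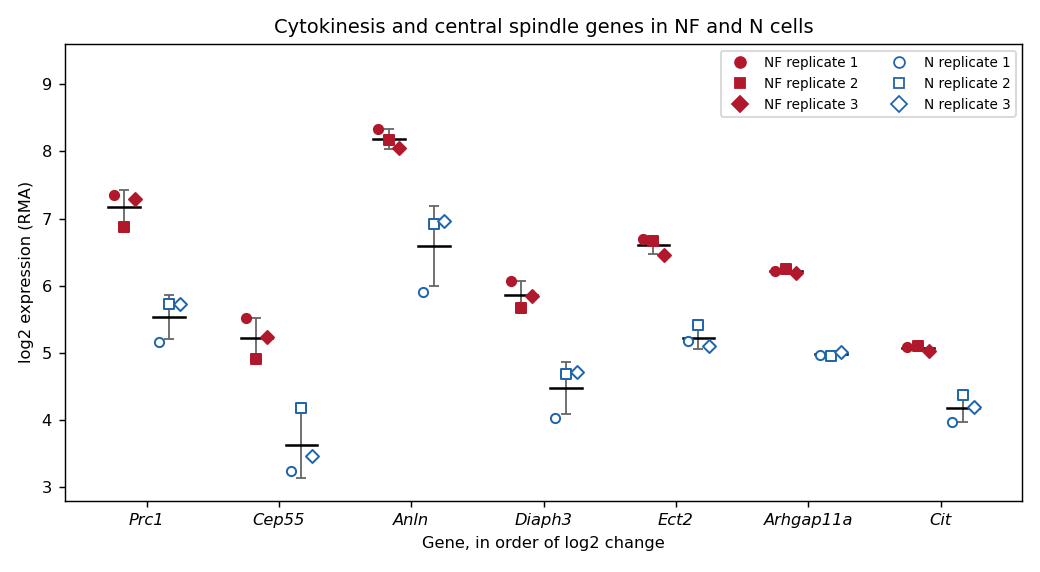
Log2 expression (RMA, vertical axis) of the 7 measured genes in the 3 NF arrays (filled, left of each pair) and the 3 N arrays (open, right), with 1 point per array, the mean as a black line and the SD as a bar. In every gene all NF points lie above all N points, with the widest spread among the N arrays in Anln and Cep55 and the least spread in Arhgap11a.

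The start-site regions of the genes are shown because they hold a motif that late cell cycle genes share. This is the cell cycle genes homology region (CHR, TTTGAA), through which the DREAM and MuvB complexes repress or activate such genes. RefSeq windows (GRCm38.p6), each 250 bases before and 50 from a start site, were searched for it on both strands. At least 1 window held it in 6 of the 8 genes, all but Cit and Diaph3, and in 20.2% of 27025 genes of the same table. Runs of 30 bases around the motif, which stands in capitals, were read 5′ to 3′ on the strand that spells TTTGAA, from the most upstream window of each gene.
Prc1: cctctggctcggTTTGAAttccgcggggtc
Cep55: cgcttccgggagTTTGAAtcccgcggctgt
Anln: tgaaattcaaatTTTGAAcggccgtggtag
Ect2: ccgtttaccggaTTTGAAacacactcacaa
Arhgap11a: aagggtcctcatTTTGAAaacaggagcggg
Racgap1: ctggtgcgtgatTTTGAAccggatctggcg
The runs lie at chr7:80294434-80294463 (Prc1, plus strand), chr19:38054996-38055025 (Cep55, minus strand), chr9:22389161-22389190 (Anln, minus strand), chr3:27153975-27154004 (Ect2, minus strand), chr2:113848743-113848772 (Arhgap11a, minus strand) and chr15:99651634-99651663 (Racgap1, minus strand). Counted from the start site, the motif began at -5 in Prc1, -99 in Arhgap11a and -114 in Ect2. It lay just after the start site in Racgap1, Anln and Cep55, and on the opposite strand in Cep55. Anln and Ect2 each held another copy. Cit, whose window lies at chr5:115845406-115845705 on the plus strand, held none.

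CCAAT boxes, bound by NF-Y, often accompany a CHR in such genes. The letters CCAAT were found on either strand in 5 of the 8 genes, all but Anln, Cep55 and Cit, and in 41.1% of genes of the table. Ect2 and Diaph3 had 3 copies each in their most upstream window. Of all windows 11.7% held 2 or more, and the share with 3 was not counted. The 150 bases before the start sites of Ect2 and Diaph3 are shown for these copies. The CHR and the CCAAT boxes of either strand stand in capitals. Each stretch holds 2 of the 3 copies, and the other begins just after the start site.
Ect2: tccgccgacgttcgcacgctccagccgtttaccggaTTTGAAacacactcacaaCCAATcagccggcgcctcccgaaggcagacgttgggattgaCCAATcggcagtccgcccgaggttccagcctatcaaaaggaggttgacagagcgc
Diaph3: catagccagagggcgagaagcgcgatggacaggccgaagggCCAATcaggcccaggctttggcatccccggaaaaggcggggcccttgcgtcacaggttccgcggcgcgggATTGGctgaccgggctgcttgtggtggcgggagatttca
They lie at chr3:27153879-27154028 and chr14:87141225-87141374, both on the minus strand. The full cAMP response element (CRE, TGACGTCA), the palindrome bound by CREB, was in the windows of 0 of the 8 genes and of 2.03% of genes of the table. A match is a description of the letters in a window, and its absence says only that these letters are not in it.

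**Figure D2:**
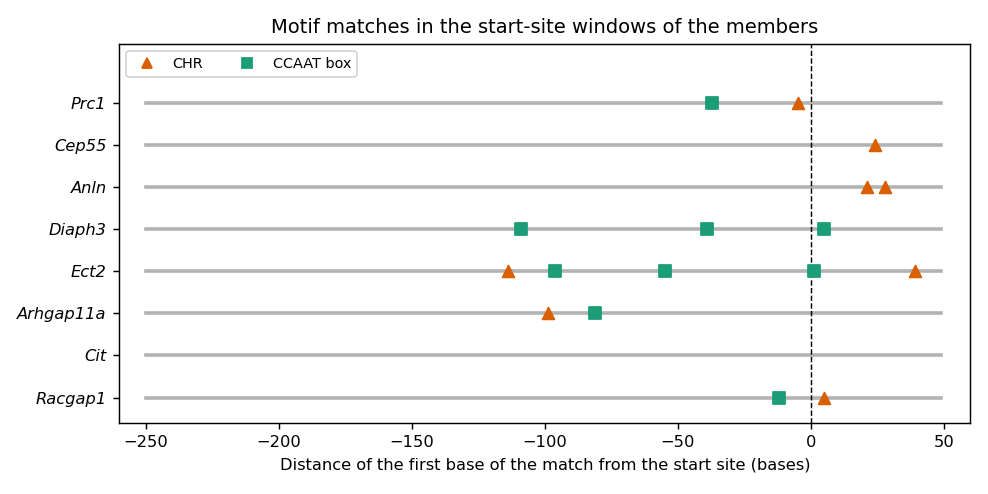
Position of CHR (triangles) and CCAAT matches (squares), on either strand, in the most upstream RefSeq window of each of the 8 genes, as the distance in bases from the start site (dashed line). Ect2 and Diaph3 hold 3 CCAAT boxes each, and Cit holds neither motif.

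Prc1, the crosslinker that bundles the microtubules of the central spindle, had the largest change of the 7 genes. Its log2 expression was 7.35, 6.87 and 7.29 in NF replicates 1 to 3, against 5.16, 5.73 and 5.73 in N replicates 1 to 3. The lowest NF array was thus 1.15 above the highest N array. The log2 change was 1.63 (standard error 0.20), 3.11-fold, with an adjusted p of 0.0116 from limma. Prc1 ranked 67 among the 16797 genes by its log2 change. Racgap1, the partner of the kinesin Kif23 in the centralspindlin complex, is the gene of this group without values.

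An activator and an inactivator of RhoA were both higher in NF. Ect2 is the exchange factor that loads RhoA with GTP at the equator. Its log2 expression was 6.69, 6.67 and 6.46 in NF, against 5.18, 5.41 and 5.10 in N. The groups were separated by 1.04, and N replicate 1 was not the lowest array. This is a log2 change of 1.38 with a standard error of 0.14, or 2.60-fold, at an adjusted p of 0.00716 from limma.

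Arhgap11a is a GTPase-activating protein that switches RhoA off, as known from human cells. It had values of 6.22, 6.25 and 6.20 in NF, against 4.97, 4.95 and 5.01 in N. The arrays of each group lay within 0.06 of each other, the narrowest range in both groups among the 7 genes. The log2 change was 1.25 (standard error 0.11), 2.37-fold, with the lowest adjusted p of the 7 genes, 0.00594 from limma.

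The scaffold and the formin of the contractile ring were higher in NF as well. Anln encodes anillin, which ties RhoA, actin, myosin II and septins together in the ring. Its log2 expression was 8.34, 8.17 and 8.05 in NF, against 5.91, 6.92 and 6.96 in N. N replicate 1 lay more than 1 log2 unit below the other N arrays. This is 3.01-fold, or 1.59 on the log2 scale with a standard error of 0.27, at an adjusted p of 0.0298 from limma. Without N replicate 1 the log2 change was 1.25 and the adjusted p 0.00208.

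Diaph3 encodes a formin of the Diaphanous family that elongates actin filaments for the ring. Its values were 6.07, 5.66 and 5.85 in NF, against 4.04, 4.69 and 4.72 in N. The lowest NF array was 0.94 above the highest N array. The log2 change was 1.38 (standard error 0.21), 2.60-fold, with an adjusted p of 0.0215 from limma.

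Its relatives Diaph1 and Diaph2 did not pass the test. Diaph1 had a log2 change of 0.21 (95% confidence interval -0.28 to 0.71) and Diaph2 one of -0.38 (-0.79 to 0.04). Within each array, the difference of Diaph3 from Diaph1 averaged -0.60 in NF and -1.77 in N, and that from Diaph2 averaged -0.77 in NF and -2.53 in N. The groups did not overlap in either difference. In these arrays Diaph3 changed by 1.17 more than Diaph1 and by 1.76 more than Diaph2 on the log2 scale. The two-sided exact permutation p was 0.1 for each of these 2 comparisons, also 0.1 after Benjamini-Hochberg adjustment. That is the smallest p that 3 arrays against 3 allow, so the test could not decide whether the changes differ. Diaph1 and Diaph2 were named for their role after their values were seen, so the comparisons only describe these arrays.

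Cep55 and Cit act at the midbody, and both were higher in NF. Cep55 brings the ESCRT machinery to the midbody. Its log2 expression was 5.51, 4.92 and 5.24 in NF, against 3.24, 4.19 and 3.47 in N. Of the 3 N arrays, 2 lay below the median of the table, so the fold change rests on dim values there. The difference was 3.01-fold, 1.59 on the log2 scale with a standard error of 0.26, at an adjusted p of 0.0263 from limma.

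Cit encodes citron kinase, which organizes the midbody. The locus also encodes a shorter form without the kinase domain, and the single probe set was not assigned to a form. Its values were 5.10, 5.10 and 5.02 in NF, against 3.97, 4.37 and 4.20 in N. Cit had the smallest change of the 7 genes, 0.89 on the log2 scale with a standard error of 0.14, or 1.86-fold, at an adjusted p of 0.0231 from limma, and it alone of the 7 stayed under 2-fold. Its confidence interval (0.57 to 1.22) overlapped that of Prc1 (1.16 to 2.11), and the difference between them was not tested.

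As deviations from the 6-array mean of each gene, the 7 genes averaged 0.83, 0.59 and 0.66 in NF replicates 1 to 3, against -1.0, -0.46 and -0.62 in N replicates 1 to 3. N replicate 1 was the lowest array in 5 of the 7 genes, and NF replicate 1 was the highest in 5. The range within NF ran from 0.06 (Arhgap11a) to 0.60 (Cep55), and within N from 0.06 (Arhgap11a) to 1.05 (Anln). In 7 of 7 genes the N arrays had the wider range, though by little in Arhgap11a. The same share over all genes was not computed. N replicate 1 also lay low over probe sets of moderate expression (median difference -0.49 from the other N arrays). Without N replicate 1 the 7 genes still all passed the test, with log2 changes between 0.79 (Cit) and 1.45 (Prc1), where 2.93% of all genes passed in this direction.

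**Figure D3:**
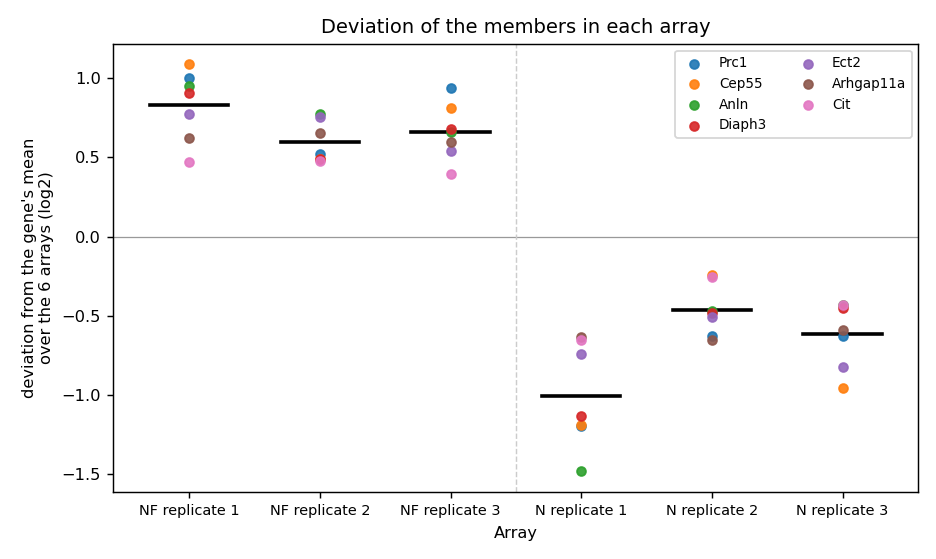
Deviation of each of the 7 genes (coloured points) from its own mean over the 6 arrays, on the log2 scale, in the NF arrays (left) and the N arrays (right), with the mean of the genes as a black line. All points are above 0 in NF and below 0 in N, and N replicate 1 has the lowest mean at -1.0.

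The other genes of cytokinesis were taken from 5 lists by role, also written with earlier results of these data known. Of their 58 genes, 52 were measured. Of these, 7 rose (13.5%, beside 1.83% of all genes), 0 fell (0.72% of all genes fell) and 45 did not pass the test. At an unadjusted p under 0.05 from limma, 14 were higher and 3 lower, where 8.33% of all genes were higher and 5.49% lower. By Student's t-test, unadjusted, 11 were higher and 1 lower, where 5.95% of all genes were higher and 5.13% lower. The 7 that rose lay in the lists of motors, of the chromosomal passenger complex and of RhoA regulators, and the median log2 change of the 52 genes was 0.16.

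Among the motors and partners of the central spindle, 2 of 5 measured genes rose, where 1.83% of all genes did. All 5 had higher means in NF, as had 7590 of all 16797 genes. Kif4, a chromokinesin that works with Prc1 on antiparallel microtubules, had values of 5.39, 5.16 and 5.17 in NF, against 3.29, 3.66 and 3.77 in N, a log2 change of 1.67 (adjusted p = 0.00716 from limma). Kif23, the motor subunit of centralspindlin and partner of Racgap1, had 5.70, 5.89 and 5.80 in NF, against 4.38, 4.78 and 4.81 in N, a log2 change of 1.14 (adjusted p = 0.0144). The groups did not overlap in either gene. In Kif4, N replicates 1 and 2 lay below the median of the table, so its fold change rests on dim values there. Shcbp1, which binds centralspindlin, had a log2 change of 0.52 (adjusted p = 0.112), and the kinesin Kif14, which binds citron kinase and Prc1 in human cells, one of 0.77 (adjusted p = 0.20). A second, dim probe set of Kif14 had a log2 change of -0.12. Kif20b, another kinesin of cytokinesis, had one of 0.70 (adjusted p = 0.284). All N arrays of Shcbp1 and of Kif20b lay below the median of the table. These 5 genes had a median of 0.77.

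In the chromosomal passenger complex, which moves to the central spindle at anaphase, and its companion kinase Plk1, 4 of 5 genes rose. Of all genes, 1.83% did. Aurkb, the kinase subunit, had values of 7.87, 7.51 and 7.49 in NF, against 5.16, 6.30 and 5.95 in N, a log2 change of 1.82 (adjusted p = 0.0215 from limma). Plk1, which prepares Ect2 for its recruitment to the central spindle, had 7.79, 7.45 and 7.94 in NF, against 5.07, 6.39 and 6.39 in N, a log2 change of 1.77 (adjusted p = 0.0443). Both were lowest in N replicate 1, as Anln was. Cdca8, which encodes borealin, had a log2 change of 1.04 (adjusted p = 0.0427) and Birc5, which encodes survivin, one of 1.04 (adjusted p = 0.0111). With 1 array left out, Plk1 and Cdca8 kept their calls only without N replicate 1, Aurkb without N replicate 1 or 2, and Birc5 without any array but NF replicate 1 or 3. The scaffold Incenp had a log2 change of 1.32 (adjusted p = 0.0799), and 0.91 without N replicate 1 (adjusted p = 0.00481). These 5 genes had a median of 1.32.

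Of 18 measured genes of the RhoA pathway and the contractile ring, 1 rose (1.83% of all genes did) and 17 did not pass the test. The gene that rose was Arhgap19, a GTPase-activating protein, with a log2 change of 0.61 (adjusted p = 0.0491 from limma), and with 1 array left out its call was kept only without N replicate 1. The call was also lost after centring of the arrays, with dim probe sets removed and with the trend and robust options. N replicates 1 and 3 of Arhgap19 lay below the median of the table. Net1, an exchange factor for RhoA, had a log2 change of 0.64 (adjusted p = 0.0701), and Myl12b, a regulatory light chain of myosin II, one of 0.52 (adjusted p = 0.125). Pkn2, a protein kinase, had one of -0.48 (adjusted p = 0.187), with all NF arrays below all N arrays, as in 9.7% of all genes. Arhgef2, an exchange factor for RhoA that microtubules hold inactive, had values of 7.03, 7.54 and 6.94 in NF, against 7.43, 8.02 and 8.21 in N, a log2 change of -0.72 (adjusted p = 0.226). Its groups overlapped through N replicate 1, without which it fell by 0.95 on the log2 scale (adjusted p = 0.0232). For Rhoa itself the log2 change was 0.12 (95% confidence interval -0.19 to 0.43), and a second probe set had -0.05. For the myosin heavy chains it was 0.08 in Myh9 and 0.29 in Myh10. Over the 18 genes the median was 0.06, but -0.08 without N replicate 1, -0.02 after quantile normalization and -0.01 after centring of the arrays.

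Of 7 measured septins, which form filaments beneath the ring, 0 passed limma's test (1 higher and 0 lower at an unadjusted p under 0.05, and 0 by Student's t-test), and their median log2 change was -0.13. Septin6 had the lowest p, with a log2 change of 0.66 (adjusted p = 0.279), and Septin10 followed with -0.31 (adjusted p = 0.527). The values of Septin4 and Septin2 were -0.19 and -0.13. Of 17 measured genes of the ESCRT machinery and abscission, 0 passed (0 higher and 1 lower at an unadjusted p under 0.05, and 0 by Student's t-test), with a median of 0.18. Among them were Zfyve19, which delays abscission in human cells (log2 change -0.49, adjusted p = 0.311), and the ESCRT-III subunits Chmp1a (0.52, adjusted p = 0.433), Chmp3 (0.27, adjusted p = 0.457) and Ist1 (0.35, adjusted p = 0.533). Among the factors that Cep55 binds, Tsg101 had a log2 change of 0.23 (adjusted p = 0.586, and -0.15 in another probe set). Pdcd6ip had one of 0.30 (adjusted p = 0.715). Of all genes 1.83% rose and 0.72% fell, so 0 passing in lists of this size does not set septins or ESCRT genes apart.

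**Figure D4:**
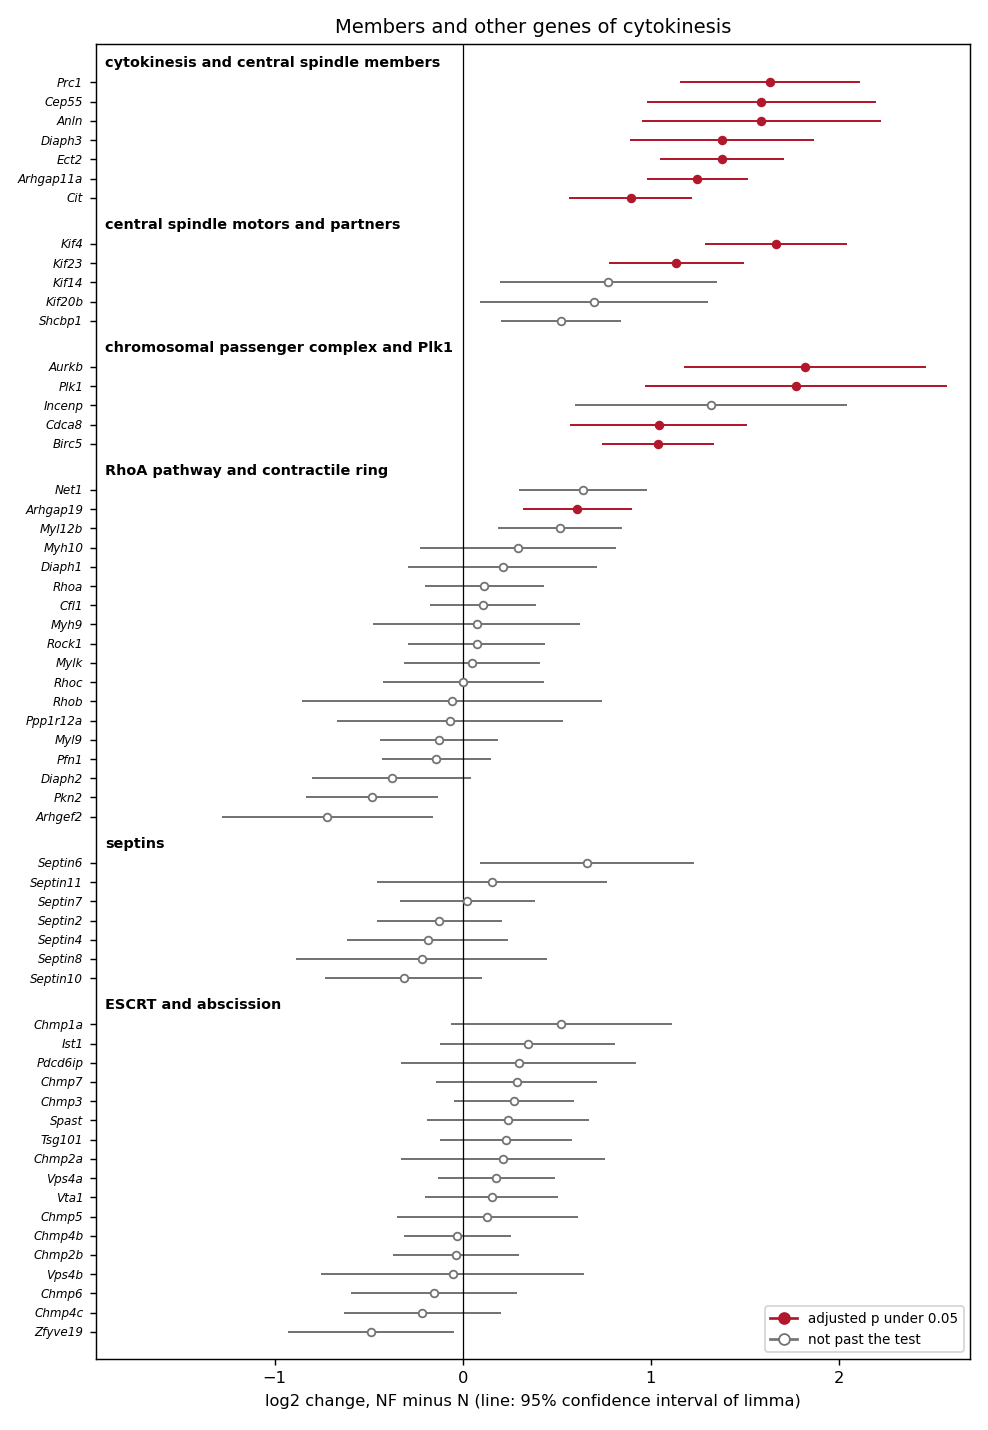
Log2 change (NF minus N, horizontal axis) of the 7 genes and of 52 other genes of cytokinesis by role, with the 95% confidence interval of limma as a line, and filled where the adjusted p is under 0.05. The 7 genes lie between 0.89 and 1.63, the passenger complex and Plk1 between 1.04 and 1.82, and most genes of the contractile ring, septin and ESCRT lists have intervals that cross 0.

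The 5 genes whose deviations over the 6 arrays came closest to the mean of the 7 genes, among 8262 other genes at or above the median of the table, were Ccna2, Ticrr, Tk1, Mcm3 and Ralgds. Closeness was the root mean square difference of log2 deviations, which was 0.09 for Ccna2, a cyclin of S and G2 phase, and 0.11 for Ralgds, an exchange factor for Ral. Ticrr acts at the start of DNA replication, Tk1 makes thymidine nucleotides and Mcm3 is a subunit of the replicative helicase. The 7 genes themselves differed from their mean by 0.10 (Diaph3) to 0.26 (Cit). The 5 genes were picked by this closeness, so their changes lie near the mean of the 7 genes by choice. Ccna2 had a log2 change of 1.48, Tk1 one of 1.58 and Ralgds one of 1.41.

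All 7 genes had higher means in NF with any 1 array left out, and their log2 changes then lay between 0.79 and 1.87. With NF replicate 1 left out, 0 of the 7 passed limma's adjustment (7 at an unadjusted p under 0.05, as 5.66% of all genes, lowest adjusted p = 0.0633), and of all genes 0.00595% passed in this direction. With NF replicate 3 left out, again 0 of the 7 passed (7 at an unadjusted p under 0.05, as 5.6% of all genes, lowest adjusted p = 0.0607), and of all genes 0.0119%. Without NF replicate 2, Anln and Cit lost their calls and 5 kept them (0.899% of all genes), and without N replicate 3, Anln, Cep55 and Cit lost theirs and 4 kept them (0.625%). All 7 kept theirs without N replicate 2 (1.62%). Among the 52 other genes, 8 rose and 1 fell without N replicate 1, and 4 rose without N replicate 2. Without NF replicate 2, 3 rose, and likewise 3 without N replicate 3. With NF replicate 1 or 3 left out, 0 rose (limma, 12 and 14 higher at an unadjusted p under 0.05).

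**Figure D5:**
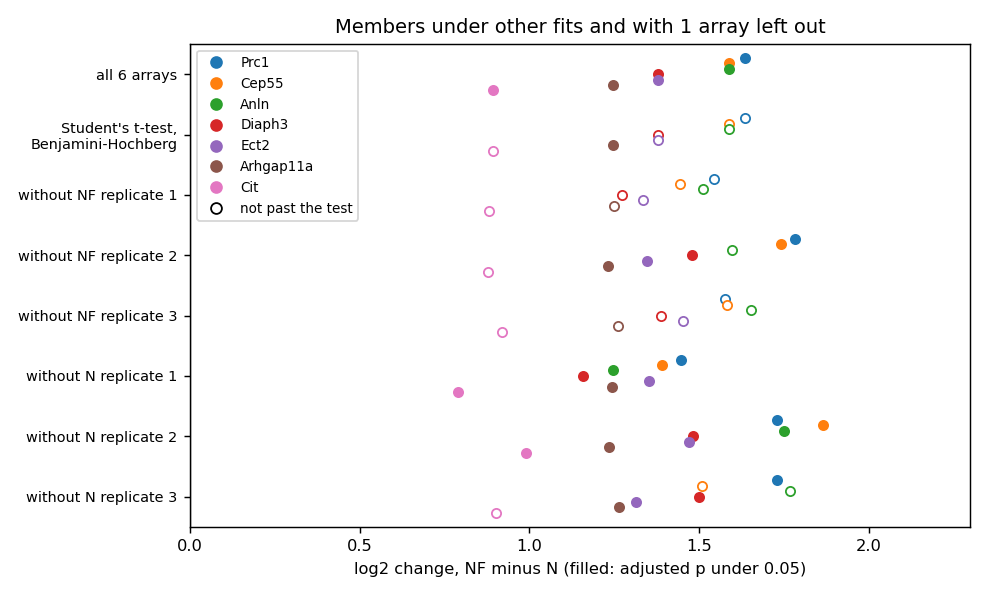
Log2 change (NF minus N, horizontal axis) of the 7 genes with all arrays, by Student's t-test and with each array left out (rows), filled where the adjusted p is under 0.05. The points stay between 0.79 and 1.87, while 0 of 7 are filled where NF replicate 1 or 3 was left out.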

How the data were processed

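The authors deposited log2 expression values, obtained from Affymetrix gene arrays by RMA in the R/Bioconductor package oligo (version not given in the sources used here), after which probe sets without an Entrez gene were removed. Which arrays were normalized together is not stated. Each column was matched to its sample by the accession that names it. Of 22035 probe sets, 18197 with 1 symbol in the platform annotation were tested, 1260 had several symbols and 2578 were not listed. As in the study's methods for the arrays, NF was compared with N by limma 3.58.1 in R 4.3.3 (lmFit, eBayes without trend or robust options), with Benjamini-Hochberg adjustment over all 18197 and a threshold of 0.05, and where a gene had several probe sets the one of lowest p stood for it. Without other information on the cultures, p-values set the group difference against the spread between the labelled replicates, which limma moderates over all probe sets. The procedure was tested on simulated data with independent noise in each probe set. No simulated array was made to stand apart as N replicate 1 does, so that case was not tested.

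The 8 genes and the lists by role, written from general knowledge, were chosen with earlier results of these data known. From each list the genes past the test and otherwise up to 4 with the lowest p are named. Rhoa, Myh9, Myh10, Diaph1, Diaph2, Tsg101 and Pdcd6ip lie outside this rule and were named for their role after their values were seen. The 5 genes closest to the mean deviation of the 7 are also named. Kif20a, Rock2, Myl12a, Septin5, Septin9, Chmp1b and the markers Pdgfra and Adgre1 had no probe set with 1 symbol and are not given. Alternatives included the replicate number used as a block, quantile normalization, median centring, removal of probe sets below the table's median, the probe set with the highest mean, the trend and robust options of limma, Student's t-test (which the study names for its statistics in general) with Benjamini-Hochberg adjustment, and leaving out each array. Start-site windows came from RefSeq, with 8 of 8 genes matched by symbol on GRCm38.p6.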

Additional observations from a re-analysis of the deposited data

How the results depend on the processing

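All 7 cytokinesis genes were higher in NF under each alternative run, with log2 changes between 0.79 and 1.87. The 7 calls were also made after quantile normalization, after centring, with dim probe sets removed, with the highest mean probe set and with trend and robust options. After Benjamini-Hochberg adjustment, Student's t-test called 1 of the 7 (Arhgap11a, with all 7 at an unadjusted p under 0.05) and 0 of the 52 other genes (11 higher at an unadjusted p under 0.05), where it called 1 gene in all. With 1 array left out, the number of the 7 that rose ranged from 0 to 7, the number of the 52 others that rose from 0 to 8 and the number that fell from 0 to 1. After quantile normalization 9 of the others rose and 1 fell, Arhgef2. With the replicate number as a block, 2 of the 7 rose (Ect2 and Arhgap11a, where 0.375% of all genes rose) and 2 of the others (Kif4 and Kif23). Arrays of the same number showed no sign of deviating together (correlations -0.0780 to -0.0736, and 0 of 6 arrays correlated best with their own number). With so few arrays per group, and N replicate 1 standing apart, these correlations cannot tell whether the numbers mark shared cultures. The fit with the block is therefore not set aside. With 1 array left out, the genes called in all numbered 1 to 922, against 428 with all 6 arrays.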
